A study of Arabidopsis thaliana with 8 samples.

Results

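The genes of the 26S proteasome, the complex that degrades ubiquitin-tagged proteins in the cytosol and nucleus, were followed in seedlings of Arabidopsis at control temperature and after heat. Members were chosen by their locus identifiers from a list of subunit genes, which held 51 of the 27655 rows of the deposited expression table. All 51 passed the filter on low values (at least 1 TPM in at least 2 libraries) that 19697 rows of the table passed. The 51 comprise 12 genes for the alpha ring, 11 for the beta ring, 10 for the RPT ATPases and 18 for the RPN subunits. Another 4 subunit genes, among them RPT1b and RPN12b, were not in the list and are kept with the pathway genes below. Expression is given as TPM, a transcript share in which reads are corrected for gene length and scaled to 1000000 per library, so that levels of different genes can be set side by side. Whole seedlings aged 7 days had been grown at 22 °C with 16 h of light and 8 h of dark. The 4 groups were wild type (accession Columbia, Col-0) and prp43a at control temperature, and both genotypes after 16 h at 38 °C, with 2 libraries per group that the labels call biological replicates. In prp43a a T-DNA (allele prp43a-1, SALKseq_42682) interrupts a gene that the series title places in the disassembly of the spliceosome, and 1 such insertion line was used. The labels do not give the hour of harvest, so heat and time of day cannot be told apart here.

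The 26S proteasome joins a barrel, the 20S core particle, to a cap, the 19S regulatory particle. The core stacks rings of alpha subunits, which form the gate, on rings of beta subunits, some of which carry the proteolytic sites. In the cap a ring of RPT ATPases unfolds the substrate and feeds it through the gate, while RPN subunits bind ubiquitin, remove it and hold the cap together. In Arabidopsis most subunit positions are encoded by a pair of paralogous genes. When proteasomes are inhibited, Arabidopsis raises the transcripts of many subunit genes together, a response in which the transcription factors NAC53 and NAC78 take part.

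The libraries held 4071041 to 4783641 recovered reads, of which 14382 to 30333 fell on the 51 subunit genes, and each gene rested on 47 to 1671 reads per library. The median coefficient of variation between the libraries of a group, over the 51 genes, was 3.66% to 6.30%. AT3G62310, annotated as an RNA helicase gene, was at 26.7 and 29.8 TPM in wild-type control and 64.6 and 72.4 in wild-type heat. In prp43a it was at 1.68 and 1.44 in control and 10.3 and 8.24 in heat. The labels do not give the locus of PRP43a, and AT3G62310 was named after its values had been seen. It is therefore no independent check of the line. Over all genes the correlation between libraries was 0.976 to 0.985 within a condition and 0.743 to 0.767 between conditions, so heat split the table as a whole. These are whole seedlings, in which fewer cells of a type and less RNA per cell cannot be told apart. The summed TPM of 4 leaf markers was 40962 and 39686 in wild-type control and 15526 and 15141 in wild-type heat, and all 4 of them fell. The summed TPM of 7 root markers was 1119 and 1152 against 175 and 139, nearly all of it from PYK10. Of the 6 root markers tested 2 fell (PYK10 and PHT1;1) and 4 were not called in wild type, with a median log2 fold change of -0.30, while the root hair genes EXPA7 and COBL9 were at or near 0. The part of these shifts in the results on the proteasome was not tested.

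Most of the proteasome subunit genes had a higher transcript share after heat. In wild type 45 of the 51 subunit genes rose after heat, 2 fell (RPN3b and PAE2) and 4 were not called either way (PAB1, PAC1, RPT4a and RPN11), by limma on log2(TPM + 1) with adjusted p below 0.05 over all genes tested. Over all genes 42.4% were called higher and 27.6% lower, so heat moved most of the transcriptome, and the count of subunit genes is to be read against that. The median log2 fold change of the 51 genes was 1.02, a 2.03-fold rise, beside 0.25 over all genes tested. At least 2-fold rises were called for 26 of the 51 genes in wild type and 25 in prp43a, beside 24.8% and 25.3% of all genes. In prp43a, 45 genes rose and 3 fell (RPN3b, PAE2 and RPT4a), beside 43.1% and 27% of all genes, with a median of 0.99 beside 0.28. The same 45 genes rose in both genotypes. For 45 genes all 4 heat libraries lay above all 4 control libraries (44.5% of all genes), for 2 they lay below (27.9% of all genes), and for 4 the libraries overlapped.

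Summed over the 51 genes, the transcripts were at 3218 and 3199.7 TPM in wild-type control, 6858 and 6305 in wild-type heat, 3284 and 3405 in prp43a control and 6949.9 and 6952 in prp43a heat. Transcripts of these 51 genes thus took 0.321% of the wild-type transcript total before heat and 0.658% after it, a ratio of 2.05, and the ratio in prp43a was 2.08. Among single genes the mean level in wild-type control ran from 14.2 TPM (RPN8b) to 135.6 TPM (PBF1), and in wild-type heat from 17.1 TPM (RPN3b) to 286 TPM (RPT2a). By summed TPM the alpha genes went up 1.99-fold, the beta genes 2.11-fold, the RPT genes 2.21-fold and the RPN genes 1.94-fold in wild type. When libraries were instead scaled so that the middle of all genes did not move (median-of-ratios, quantile or read-based voom scaling), 38 to 41 genes rose and 4 to 5 fell in wild type. The excess of the subunit median over the median of all genes was 0.78 on the TPM scale and 0.70 to 0.76 under those scalings.

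**Figure D1:**
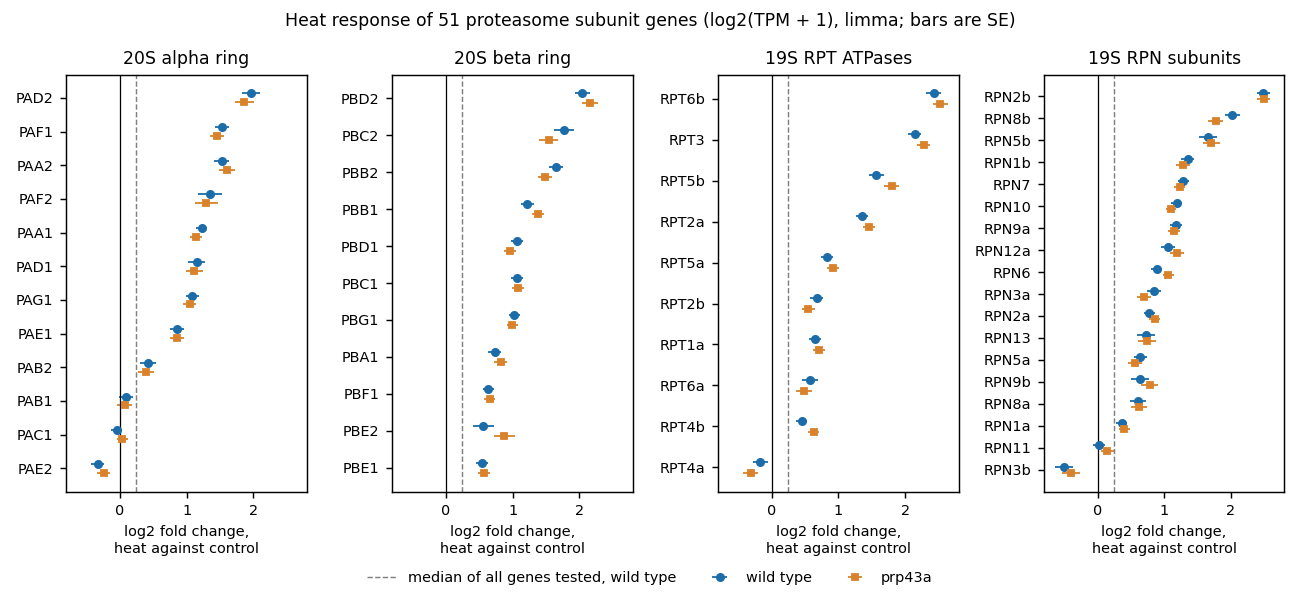
Log2 fold change of each of the 51 subunit genes, heat against control, in wild type (circles) and prp43a (squares), with bars for the SE of the fit. The dashed line is the median of all genes tested in wild type (0.25); most genes lie to its right in both genotypes, and RPN3b and PAE2 lie left of 0.

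The sequence upstream of the genes was read for motifs. The 250 bases before each annotated start (RefSeq gene models, assembly TAIR10.1) were searched on both strands for TGGGC, the core of the site II element known from promoters of plant housekeeping genes and of proteasome genes, and for the heat shock element. The latter was searched in 2 units (GAANNTTC or TTCNNGAA) and in 3 units, in which a further GAA or TTC follows after 2 more bases, so that each 3-unit match holds 2-unit ones. TGGGC stood in the windows of 24 of the 51 subunit genes (47.1%), beside 22.7% of 27443 windows of the same length over the genome. At least 2 copies stood in 18 windows (35.3%), beside 12.6%. Beta genes held it most often, 7 of 11, and RPT genes least often, 3 of 10. The 3-unit heat shock element stood in 1 window, that of RPN5a, which lies wholly in the exons of a neighbouring gene, and in 0.386% of all windows. The 2-unit element stood in 7 windows (13.7%), beside 16.2% of all windows.

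The counts by motif are to be read against 45 of all 51 subunit genes that rose in wild type, with a median log2 fold change of 1.02. Over all genes tested, 42.4% were called higher and 27.6% lower. The heat response of other genes with TGGGC, and any link of the motif to the response, was not tested. All 18 subunit genes with at least 2 copies of TGGGC rose in wild type, with a median log2 fold change of 1.28. Of all 24 genes with a copy 23 rose, with a median of 1.04. The 27 genes without a copy comprised 22 that rose and both that fell, with a median of 0.82. Both groups hold windows that overlap exons of neighbouring genes. Those of PBD2 and RPN12a (no copy) and RPN9b (with a copy) lie wholly in such exons, like that of RPN5a. Those of PAB1, PAB2, PAE2, PBC1, RPT2b, RPT5b, RPN7, RPN10 and RPN11 (no copy) lie there in part. So do those of PAD1 (by 1 base), PAD2, PBF1, PBG1, RPT2a, RPT3, RPN3a and RPN6 (with copies). How the counts and medians change without such windows was not tested. The largest rises were found with and without the motif, as 5 windows free of other genes' exons show. RPN1b had the most copies, the pair RPN2b and RPN2a differed in copies and in response, RPT6b rose among the most without a copy, and PAC1 held a copy and was not called. They are printed 5′ to 3′ on the strand of the gene, with TGGGC and its reverse complement GCCCA in capitals.
RPN1b, chr4:14072583-14072832, minus strand, 5 copies, log2 fold change 1.35: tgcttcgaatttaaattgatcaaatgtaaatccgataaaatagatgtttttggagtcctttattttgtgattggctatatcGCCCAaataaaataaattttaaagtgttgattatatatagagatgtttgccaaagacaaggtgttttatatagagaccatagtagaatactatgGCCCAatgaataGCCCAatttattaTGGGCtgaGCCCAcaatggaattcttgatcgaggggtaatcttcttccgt
RPN2b, chr1:1349830-1350079, plus strand, 2 copies, log2 fold change 2.48: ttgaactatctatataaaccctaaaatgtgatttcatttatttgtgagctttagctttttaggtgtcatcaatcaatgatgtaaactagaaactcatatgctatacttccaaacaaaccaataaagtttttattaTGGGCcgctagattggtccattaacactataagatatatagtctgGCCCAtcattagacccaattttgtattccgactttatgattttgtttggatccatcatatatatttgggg
RPN2a, chr2:13879709-13879958, plus strand, no copy, log2 fold change 0.77: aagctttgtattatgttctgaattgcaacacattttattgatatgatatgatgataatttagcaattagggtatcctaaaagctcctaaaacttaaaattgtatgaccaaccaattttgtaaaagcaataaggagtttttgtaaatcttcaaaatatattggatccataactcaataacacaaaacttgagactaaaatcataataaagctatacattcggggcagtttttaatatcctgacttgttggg
RPT6b, chr5:6756383-6756632, plus strand, no copy, log2 fold change 2.43: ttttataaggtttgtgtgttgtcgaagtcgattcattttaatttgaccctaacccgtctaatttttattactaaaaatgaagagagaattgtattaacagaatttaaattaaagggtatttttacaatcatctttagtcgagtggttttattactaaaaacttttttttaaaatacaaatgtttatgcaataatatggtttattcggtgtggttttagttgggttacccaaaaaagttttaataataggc
PAC1, chr3:7794263-7794512, minus strand, 1 copy, log2 fold change -0.05: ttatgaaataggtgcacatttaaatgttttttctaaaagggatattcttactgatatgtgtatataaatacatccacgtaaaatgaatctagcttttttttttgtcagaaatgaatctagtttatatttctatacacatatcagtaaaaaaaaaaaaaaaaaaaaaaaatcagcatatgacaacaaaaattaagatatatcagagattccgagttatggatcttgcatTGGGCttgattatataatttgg
A match is a run of letters, not a mapped binding site, and the starts of the gene models were not measured here.

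The alpha ring, whose subunits shape the gate of the core, had strong risers and 2 of the 4 genes not called in wild type. Of its 12 genes 9 rose in wild type, 1 fell and 2 were not called, with a median log2 fold change of 1.11. PAD2 (AT5G66140), for position alpha 4, was at 27.5 and 32.8 TPM in wild-type control, 133 and 108 in wild-type heat, 33.5 and 35.2 in prp43a control and 116 and 141 in prp43a heat. All heat libraries lay above all control libraries, and the log2 fold change in wild type was 1.96 ± 0.14 (SE) (adjusted p = 8.4e-07, limma). PAF1 (AT5G42790), for alpha 6, was at 97.3 and 94.3 TPM in wild-type control, 311 and 249 in wild-type heat, 97.4 and 105 in prp43a control and 285 and 273 in prp43a heat, with a log2 fold change of 1.53 ± 0.11 (SE) in wild type (adjusted p = 7.7e-07, limma) and no overlap between conditions. The others of the ring that rose were PAA2 (1.52), PAF2 (1.35), PAA1 (1.22), PAD1 (1.15), PAG1 (1.08), PAE1 (0.86) and PAB2 (0.41), all log2 fold changes in wild type, of which only that of PAB2 was not called under the 3 other scalings.

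PAC1 (AT3G22110) is the only listed gene for alpha 3 and was at 132 and 128 TPM in wild-type control, 126 and 126 in wild-type heat, 138 and 130.4 in prp43a control and 132 and 142 in prp43a heat. Control and heat libraries overlapped, and the log2 fold change in wild type was -0.05 ± 0.08 (SE) with a 95% interval of -0.23 to 0.13, which leaves out a 2-fold rise. On the scalings that hold the middle of all genes in place PAC1 was called lower in both genotypes. PAB1 (AT1G16470), for alpha 2, was at 57.6 and 54.1 TPM in wild-type control, 57.5 and 61.5 in wild-type heat, 60.7 and 67.3 in prp43a control and 72.3 and 62.1 in prp43a heat, with a log2 fold change of 0.09 ± 0.11 (SE) and an interval of -0.15 to 0.33. PAE2 (AT3G14290), for alpha 5, was at 52.1 and 55.6 TPM in wild-type control, 44.0 and 41.0 in wild-type heat, 49.8 and 50.8 in prp43a control and 40.9 and 43.9 in prp43a heat. Every heat library lay below every control library, and PAE2 fell by 0.33 on the log2 scale in wild type (SE 0.10, adjusted p = 0.012, limma). That call was lost without wild-type control replicate 2 and, in prp43a, in 6 of the 8 fits that left out 1 library.

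The beta ring was the only one of the 4 classes in which every gene rose, 11 of 11 in both genotypes, with medians of 1.06 (wild type) and 0.99 (prp43a), on the TPM scale. The catalytic positions were covered by 5 genes. PBA1 (AT4G31300), the beta 1 subunit with caspase-like activity, was at 106 and 123 TPM in wild-type control, 203 and 178 in wild-type heat, 114 and 114 in prp43a control and 209 and 198 in prp43a heat, a log2 fold change of 0.73 ± 0.10 (SE) in wild type. PBB1 (AT3G27430) and PBB2 (AT5G40580) encode beta 2, with trypsin-like activity, and rose by 1.22 ± 0.09 (SE) and 1.65 ± 0.11 (SE). The summed TPM of both was 126 and 132 in wild-type control and 342 and 328 in wild-type heat. PBE1 (AT1G13060) and PBE2 (AT3G26340) encode beta 5, with chymotrypsin-like activity, and rose least in the ring in wild type, by 0.54 ± 0.09 (SE) and 0.56 ± 0.16 (SE) (adjusted p = 4.7e-04 and 0.0087, limma). In prp43a PBE2 rose by 0.88, more than PBF1 and PBA1. PBE1 was no longer called in wild type with median-of-ratios scaling. PBE2 was no longer called there under the 3 other scalings, nor without wild-type control replicate 2 or wild-type heat replicate 2. PBE1 was at 82.9 and 83.0 TPM in wild-type control, 128 and 114 in wild-type heat, 86.2 and 82.0 in prp43a control and 131 and 120.1 in prp43a heat, and PBE2 at 22.1 and 18.2 TPM in wild-type control, 28.0 and 32.2 in wild-type heat, 22.0 and 19.8 in prp43a control and 34.6 and 44.2 in prp43a heat.

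The largest rise of the ring was that of PBD2 (AT4G14800), for the beta 4 position, which has no proteolytic site. It was at 38.9 and 34.9 TPM in wild-type control, 171 and 141 in wild-type heat, 36.6 and 32.4 in prp43a control and 157 and 158 in prp43a heat, with a log2 fold change of 2.04 ± 0.11 (SE) in wild type (adjusted p = 1.7e-07, limma). PBC2 (AT1G77440), for beta 3, came next, with 35.8 and 43.5 TPM in wild-type control, 149 and 126 in wild-type heat, 40.5 and 54.3 in prp43a control and 136 and 140.4 in prp43a heat and a log2 fold change of 1.77 ± 0.15 (SE). In both genes the libraries of the 2 conditions were far apart, and the genotypes overlapped or lay close. PBD1 (1.07), PBC1 (1.06), PBG1 for beta 7 (1.02) and PBF1 for beta 6 (0.63) completed the ring, by their log2 fold changes in wild type.

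The RPT ATPases, which form the motor ring of the cap, had a lower median (0.75 in wild type) and a wide range. In wild type 9 of the 10 rose and RPT4a was not called. RPT6b (AT5G20000) was at 33.3 and 36.5 TPM in wild-type control, 213 and 173 in wild-type heat, 36.7 and 39.3 in prp43a control and 231 and 215 in prp43a heat, a 5.38-fold rise in wild type (log2 2.43 ± 0.11 (SE), adjusted p = 5e-08, limma). Its paralog RPT6a (AT5G19990) was at 47.4 and 43.7 TPM in wild-type control, 75.8 and 60.9 in wild-type heat, 46.8 and 50.5 in prp43a control and 70.9 and 66.5 in prp43a heat, with a log2 fold change of 0.57 ± 0.12 (SE), not called with median-of-ratios scaling. The genes lie head to tail on the plus strand of chromosome 5, RPT6a at chr5:6751798-6755315 and RPT6b at chr5:6756633-6759800 (TAIR10.1), with 1317 bases between them. Their coding sequences are 94.4% identical, the most of any pair. Of all exact 75-base windows, the read length, 1.96% in RPT6a and 2.79% in RPT6b occurred in both. Few reads could thus match both genes exactly, but how reads with mismatches were placed is unknown.

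RPT3 (AT5G58290) is the only gene for its position. It was the RPT position with the lowest level in control, at 65.1 and 58.3 TPM in wild type and 60.1 and 62.7 in prp43a, and stood at 295 and 257 and 294 and 309 after heat. The log2 fold change in wild type was 2.14 ± 0.10 (SE) (adjusted p = 4.2e-08, limma), the largest among the 13 positions with a single listed gene. RPT4a (AT5G43010) was at 41.8 and 39.5 TPM in wild-type control, 34.8 and 37.1 in wild-type heat, 48.4 and 50.4 in prp43a control and 35.9 and 43.2 in prp43a heat, and its paralog RPT4b (AT1G45000) at 94.9 and 101 TPM in wild-type control, 138 and 131 in wild-type heat, 92.7 and 99.1 in prp43a control and 149.8 and 148 in prp43a heat. RPT4a was called lower in prp43a only (-0.32 ± 0.12 (SE), adjusted p = 0.03), against -0.17 ± 0.12 (SE) in wild type, a difference between the genotypes that was not called (interaction adjusted p = 0.95, limma). That call was lost in 3 of the fits that left out 1 library, and under the 3 other scalings RPT4a was called lower in wild type as well. The rise of RPT4b (0.45 ± 0.08 (SE)) was called in wild type on the TPM scale, but not under the 3 other scalings. The remaining ATPase genes rose by 1.57 (RPT5b), 1.35 (RPT2a), 0.82 (RPT5a), 0.67 (RPT2b) and 0.65 (RPT1a) on the log2 scale in wild type. RPT2a, whose loss is known to disturb meristems in Arabidopsis, had the highest mean level of the 51 genes in heat in both genotypes, with 293 and 279.8 TPM in wild type and 332 and 317 in prp43a, against 119 and 104 and 116 and 119 in control. In wild-type heat replicate 1 PAF1 and RPT3 stood above it.

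Among the RPN subunits 16 of 18 rose in wild type, with a median log2 fold change of 0.87. The largest rise of the 51 genes in wild type, and the next after RPT6b in prp43a, was that of RPN2b (AT1G04810), for a scaffold subunit of the cap. RPN2b was at 23.5 and 25.3 TPM in wild-type control, 147 and 136 in wild-type heat, 25.0 and 26.5 in prp43a control and 152 and 147 in prp43a heat, a 5.59-fold rise in wild type (log2 2.48 ± 0.09 (SE), adjusted p = 1.4e-08, limma). Its paralog RPN2a (AT2G32730) was at 60.9 and 60.3 TPM in wild-type control, 102 and 107 in wild-type heat, 59.9 and 60.7 in prp43a control and 108 and 112 in prp43a heat and rose by 0.77 ± 0.08 (SE). The heat libraries of both genes lay above their control libraries, and only in heat did RPN2b exceed RPN2a. The windows of this pair printed above hold 2 copies and no copy of TGGGC. Pairs were mixed in this. PBD2, with no copy, rose more than PBD1, with 2, and RPN8b, with 2, rose more than RPN8a, with 4. In other pairs, such as RPN1 and RPT2, the paralog with more copies rose more. Whether copies and response go together over the pairs was not tested.

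The subunits that handle ubiquitin differed. RPN10 (AT4G38630), a ubiquitin receptor, was at 77.7 and 72.8 TPM in wild-type control, 172 and 173 in wild-type heat, 80.5 and 77.6 in prp43a control and 173 and 168 in prp43a heat and rose by 1.19 ± 0.08 (SE) (adjusted p = 6.1e-07, limma). RPN13 (AT2G26590), another receptor, had the lowest summed level of all 32 positions in all 8 libraries, with 27.1 and 24.6 TPM in wild-type control, 41.1 and 45.4 in wild-type heat, 24.5 and 27.6 in prp43a control and 48.8 and 39.7 in prp43a heat, and rose by 0.72 ± 0.13 (SE). RPN1a (AT2G20580), which binds ubiquitin and shuttle proteins, had the smallest called rise in wild type, 0.36 ± 0.09 (SE), and was not called under the 3 other scalings. RPN11 (AT5G23540), the metalloprotease that takes the ubiquitin chain off the substrate, was at 91.2 and 80.6 TPM in wild-type control, 90.6 and 83.7 in wild-type heat, 93.1 and 88.0 in prp43a control and 101 and 99.4 in prp43a heat. Its control and heat libraries overlapped, and its log2 fold change in wild type was 0.02 ± 0.09 (SE) with an interval of -0.19 to 0.23. Under the other scalings the value of RPN11 turned negative in both genotypes, with -0.26 in wild type under quantile normalization.

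RPN8, the partner of RPN11 in the lid, is encoded by RPN8a (AT5G05780) and RPN8b (AT3G11270). RPN8b was at 14.1 and 14.2 TPM in wild-type control, 62.9 and 58.2 in wild-type heat, 15.8 and 15.7 in prp43a control and 59.7 and 52.9 in prp43a heat, and rose by 2.02 ± 0.11 (SE) in wild type, while RPN8a was at 78.3 and 72.7 TPM in wild-type control, 130.1 and 103 in wild-type heat, 74.0 and 84.0 in prp43a control and 122 and 122 in prp43a heat and rose by 0.61 ± 0.12 (SE), not called with median-of-ratios scaling. RPN5a (AT5G09900) and RPN5b (AT5G64760), for another lid subunit, split in the same way, with rises of 0.64 ± 0.10 (SE) and 1.66 ± 0.13 (SE). RPN3b (AT1G75990) went the other way. It was at 24.4 and 24.9 TPM in wild-type control, 15.3 and 18.99 in wild-type heat, 23.9 and 23.6 in prp43a control and 18.3 and 17.1 in prp43a heat, every heat library below every control library, and fell by 0.51 on the log2 scale in wild type (SE 0.14, adjusted p = 0.0077, limma) and by 0.40 in prp43a. Its paralog RPN3a (AT1G20200) was at 45.3 and 43.3 TPM in wild-type control, 74.7 and 86.8 in wild-type heat, 51.3 and 55.2 in prp43a control and 84.3 and 89.0 in prp43a heat and rose by 0.85 ± 0.10 (SE). The fall of RPN3b in prp43a was not called in the 4 fits that left out a prp43a library. The other RPN genes rose by 1.35 (RPN1b), 1.29 (RPN7), 1.17 (RPN9a), 1.06 (RPN12a), 0.89 (RPN6) and 0.63 (RPN9b) on the log2 scale in wild type. RPN6, RPN7, RPN9 and RPN12 are lid subunits.

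**Figure D2:**
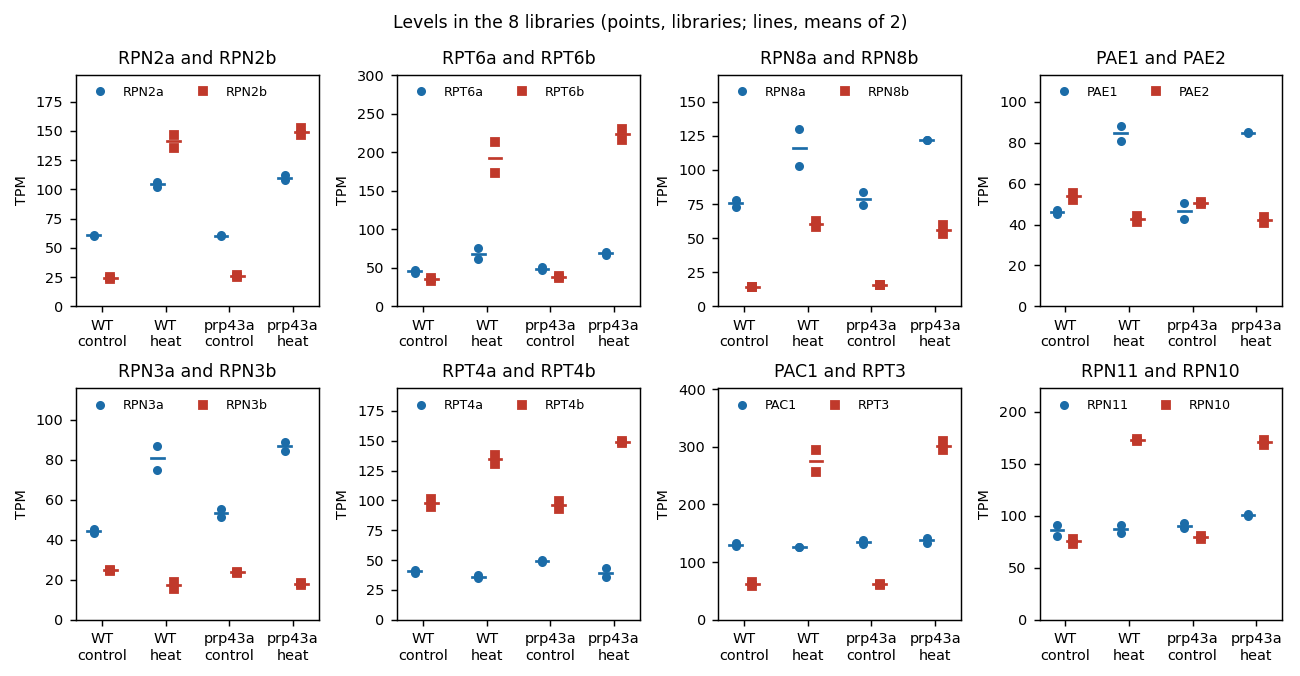
TPM of 16 subunit genes in each of the 8 libraries, 2 genes per panel (points are libraries, lines the means of 2, axes from 0). RPN2b, RPT6b, RPN8b and RPT3 stand far higher in all 4 heat libraries, PAC1 and RPN11 overlap between conditions, and RPN3b and PAE2 are lower in heat.

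The transcripts of the listed genes for the same position were added up. The 32 positions with a gene in the list were covered by 13 single genes and 19 pairs of the list. RPT1b and RPN12b, kept with the pathway genes below, were not added to the sums of RPT1 and RPN12. In wild-type control the 7 alpha positions lay close together: the highest, alpha 1, was 1.65 and 1.58 times the lowest in the 2 libraries. After heat alpha 1 stood at 426 and 375 TPM and was 3.38 and 3.10 times the lowest. The coefficient of variation across the 7 alpha positions was 18.4% and 16.8% in wild-type control and 51.9% and 46.9% in wild-type heat. In prp43a it was 16.3% and 18.6% in control and 48.6% and 48.0% in heat. So the alpha positions spread apart in all 4 heat libraries, with alpha 1, 4 and 6 far above alpha 2, 3 and 5. Other classes widened too: in wild type the coefficient went from 20.4% and 21.6% to 33.3% and 32.2% across the beta positions and from 24.7% and 26.2% to 39.5% and 37.4% across the RPN positions. Whether the classes differ in this was not tested.

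The positions that moved least were alpha 2 (102 and 107 TPM in wild-type control, 128 and 121 in wild-type heat), alpha 3 (132 and 128 against 126 and 126), alpha 5 (99.4 and 101 against 132 and 122), RPT4 (137 and 141 against 173 and 168) and RPN11 (91.2 and 80.6 against 90.6 and 83.7). Each had a heat to control ratio of 1.27 or less in wild type. The largest ratios were those of RPT3 (4.47), RPT6 (3.25), beta 4 (3.003) and RPN2 (2.89). In the RPT ring the spread did not widen: RPT2 was 2.50 and 2.55 times the lowest position in wild-type control and 2.08 and 2.20 times in wild-type heat. By the listed genes, RPT3 was the lowest of the 6 RPT positions in all 4 control libraries and RPT1 or RPT4 in all 4 heat libraries. RPT1 stands here without RPT1b. These are transcript sums, and the amounts of the proteins were not measured.

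**Figure D3:**
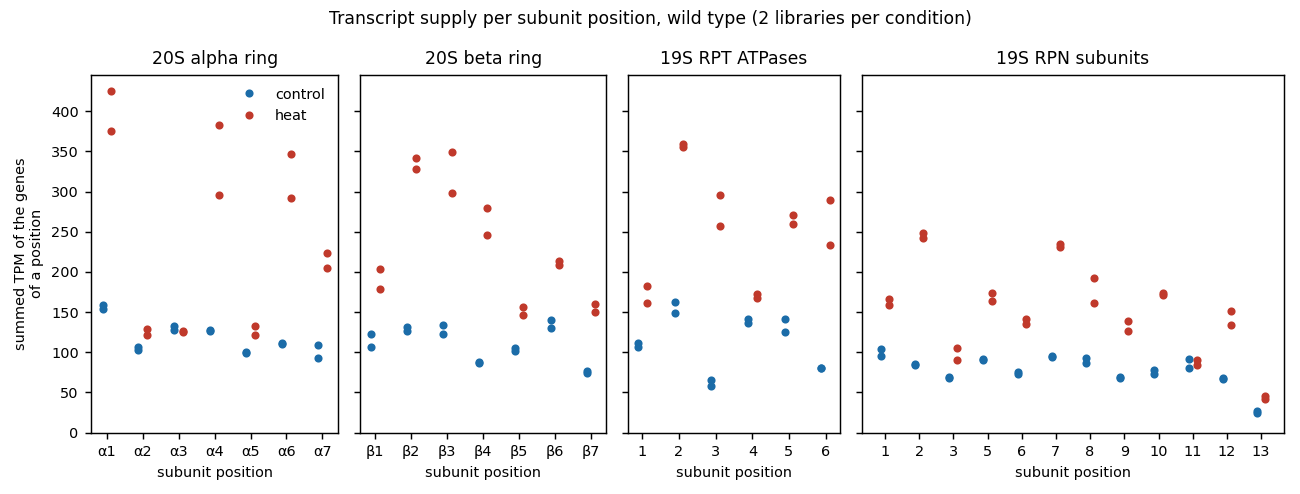
Summed TPM of the listed genes for each of the 32 subunit positions in the 2 wild-type control and the 2 wild-type heat libraries (axis from 0). Alpha 1, 4 and 6 rise away from alpha 2, 3 and 5, and RPT3 goes from the lowest RPT position to one of the upper ones, while RPN11 does not move.

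The balance within pairs also changed. In each of the 19 pairs the paralog with the lower mean TPM in wild-type control is called the lesser one here. The lesser paralog gained share after heat in 14 pairs, in 11 of them with no overlap between the 4 heat and the 4 control libraries, and lost share without overlap in 3. Over all single genes, all 4 heat libraries lay above all 4 control libraries for 44.5% and below them for 27.9%. How often the ratios of other gene pairs separate was not tested. The 14 paralog pairs without overlap had an exact permutation p of 0.0286, the smallest that 4 libraries against 4 allow, and an adjusted p of 0.0388 over the 19 pairs (two-sided, genotypes pooled). Permuted within genotype, the smallest possible p is 0.0556, so no pair could pass. The choice of the lesser paralog used wild-type control levels. In the prp43a libraries, which it did not use, the lesser paralog also gained in 14 of 19 pairs, and its median log2 fold change with heat was 1.48 beside 0.85 for the other paralogs.

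RPT6b held 41.2% and 45.5% of the RPT6 transcripts in wild-type control and 73.8% and 74.0% in wild-type heat. RPN2b went from 27.8% and 29.6% to 58.9% and 56.0%. RPN8b went from 15.3% and 16.3% to 32.6% and 36.2% and stayed the lesser paralog. In 4 of the pairs without overlap (PAE, PBD, RPT6 and RPN2) the mean share of the lesser paralog passed 50% after heat in wild type, PAE1 reaching 66.7% and 66.3% and PBD2 61.1% and 57.2%. PAE1 (AT1G53850) was at 47.3 and 45.1 TPM in wild-type control, 88.2 and 80.8 in wild-type heat, 50.3 and 42.8 in prp43a control and 84.9 and 84.9 in prp43a heat, against the falling levels of PAE2 given above. Pairs that went the other way were RPN3, RPT4 and RPT2, in which RPN3b fell from 34.9% and 36.5% to 17.0% and 17.9%, RPT4a from 30.6% and 28.0% to 20.1% and 22.1% and RPT2b from 26.7% and 30.1% to 18.6% and 21.2%. In 5 pairs (PAB, PAF, PBB, PBE and RPN9) the libraries overlapped and the ratio did not pass the test. Paralogs had coding sequences 80.3% to 94.4% identical, and outside RPT6 no pair shared an exact 75-base window.

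**Figure D4:**
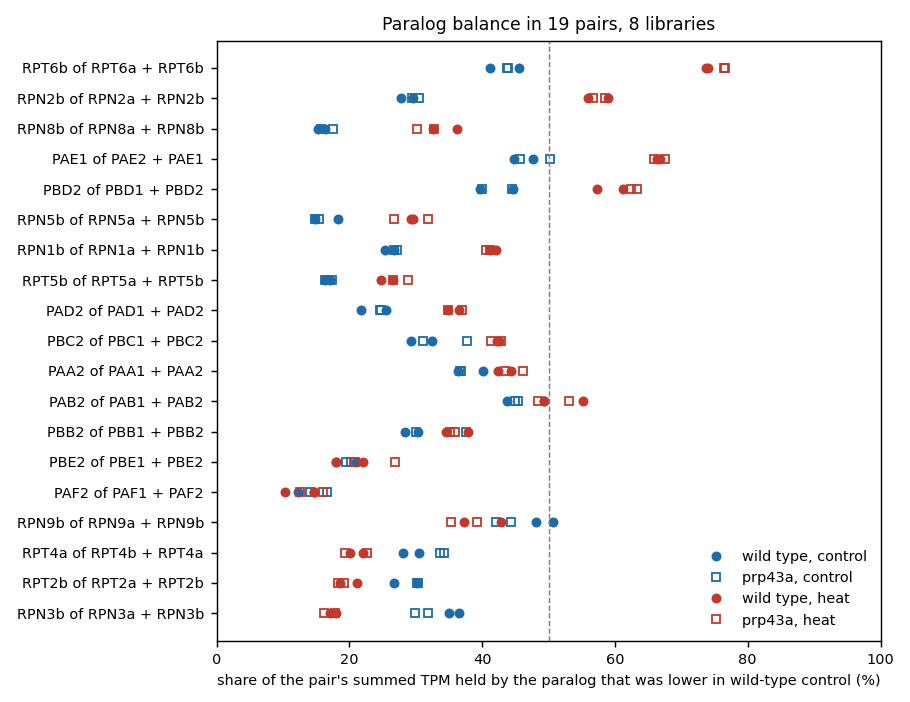
Share of each pair's summed TPM held by the paralog that was lower in wild-type control, in each of the 8 libraries, for 19 pairs (blue control, red heat; filled wild type, open prp43a; dashed line at 50%). The red and blue points of RPT6b, RPN2b and RPN8b are far apart with red to the right, and those of RPN3b, RPT2b and RPT4a with red to the left.

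The insertion in PRP43a left no called mark on these genes, as on nearly all genes tested. At control temperature 0 of 51 subunit genes were called between prp43a and wild type by limma (0.0711% of all genes were called). Of the 51, 2 had an unadjusted p below 0.05, beside 1760 of the 19697 genes tested, and 0 were called by voom on recovered reads. The smallest p was that of RPN3a, 51.3 and 55.2 TPM in prp43a control against 45.3 and 43.3 in wild-type control, higher in both libraries by 0.26 ± 0.10 (SE) with an adjusted p of 0.5. After heat 0 of 51 were called (0.00508% of all genes), 2 had an unadjusted p below 0.05, beside 899 of the 19697 genes tested, and 0 were called by voom. The smallest p there was that of RPT5b (AT1G09100), 81.9 and 87.0 TPM in prp43a against 67.1 and 68.7 in wild type, a difference of 0.31 ± 0.11 (SE) with an adjusted p of 1. The log2 differences between genotypes ran from -0.16 to 0.28 in control and from -0.20 to 0.37 in heat. Their 95% intervals lay within -0.45 to 0.67 and -0.40 to 0.72, so 2-fold differences between genotypes lay outside the interval of each of the 51 genes.

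The heat response itself did not differ detectably between genotypes. For the interaction 0 of 51 genes were called (0.0102% of all genes), and 0 were called by voom. An unadjusted p below 0.05 was found for 0 of the 51, beside 1237 of the 19697 genes tested. The smallest p was that of RPN8b, whose heat response was smaller in prp43a by 0.25 on the log2 scale, from 1.77 against 2.02 (interaction -0.25 ± 0.16 (SE), adjusted p = 0.87, limma). With 2 libraries per group, intervals of the interaction reached from -0.70 to 0.81 over the 51 genes.

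Genes that serve the proteasome were looked at beside it: 48 genes for other subunits, assembly factors, regulators, ubiquitin and its handling, and the COP9 signalosome, a complex related to the lid of the cap. In wild type 44 of the 48 rose with heat, 1 fell and 3 were not called, beside 42.4% of all genes called higher and 27.6% lower. The median log2 fold change of the 48 was 1.18, beside 0.25 over all genes tested. The counts by set below are to be read against the same shares. All 10 signalosome genes rose, with a median of 1.53, and their summed TPM went from 242 and 233 in wild-type control to 920.2 and 852 in wild-type heat. CSN7 (AT1G02090) rose most, from 23.7 and 23.7 to 331 and 297 TPM (3.67 ± 0.11 (SE)), and CSN5A (AT1G22920), a copy of the subunit that removes the ubiquitin-like protein NEDD8 from cullins, rose least (0.67 ± 0.11 (SE)).

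Of 8 assembly genes 7 rose in wild type. The maturation factor gene UMP1B (AT5G38650) went from 28.7 and 18.2 to 165 and 148 TPM (2.72 ± 0.21 (SE)), and AT1G48170, annotated as an assembly chaperone, was not called (0.19 ± 0.16 (SE)). In prp43a AT1G48170 rose, from 8.39 and 9.94 to 17.4 and 20.3 TPM, by 0.96 ± 0.16 (SE) (adjusted p = 0.00033, limma), against 12.2 and 13.1 to 14.7 and 14.4 TPM in wild type. The difference between these responses was not called (interaction adjusted p = 0.64, unadjusted p = 0.0059, limma). PTRE1 (AT3G53970), annotated as a proteasome inhibitor-like protein, went from 29.6 and 27.1 to 256 and 229 TPM (3.05 ± 0.10 (SE)), more than any of the 51 subunit genes. PA200 (AT3G13330), an alternative cap of the core, rose by 0.62 ± 0.13 (SE). The transcription factor genes NAC53 (AT3G10500) and NAC78 (AT5G04410) rose by 0.96 ± 0.21 (SE) and 0.74 ± 0.11 (SE), NAC53 from 10.4 and 7.51 and NAC78 from 47.6 and 43.9 TPM in control to 16.5 and 20.1 and 79.4 and 75.1 in heat. Among 4 genes for other subunits, all of which rose, the values ran from 0.73 ± 0.12 (SE) for RPT1b to 1.40 ± 0.14 (SE) for DSS1(V).

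The genes of ubiquitin supply and delivery had the widest range of the pathway genes in wild type. CDC48B (AT3G53230), for an ATPase that pulls ubiquitin-tagged proteins out of complexes and membranes, went from 12.9 and 7.11 to 191 and 157 TPM (4.04 ± 0.22 (SE)), while the far more abundant CDC48A (AT3G09840) rose by 0.94 ± 0.08 (SE). All 5 polyubiquitin genes rose, from 0.76 ± 0.09 (SE) for UBQ10 to 2.09 ± 0.08 (SE) for UBQ14, but their repeats are nearly identical, so how reads were shared among them is uncertain. The ubiquitin-activating enzyme genes UBA1 and UBA2 rose by 0.40 ± 0.09 (SE) and 1.63 ± 0.12 (SE). All 6 shuttle genes looked at, which carry tagged proteins to the proteasome, rose, with a median log2 fold change of 0.78, DDI1 most (1.23 ± 0.12 (SE)). Of 5 deubiquitinase genes 2 rose, UBP14 most (1.55 ± 0.12 (SE)), 2 were not called, and UBP7 (AT3G21280) fell by 1.39 on the log2 scale, from 10.4 and 11.2 to 3.59 and 3.41 TPM. In either condition 0 of the 48 genes were called between prp43a and wild type by limma, beside 0.0711% of all genes in control and 0.00508% in heat. At an unadjusted p below 0.05 were 7 in control and 1 in heat, beside 1760 and 899 of the 19697 genes tested. With voom 0 of the 48 were called. UBQ3, at 264 and 139 TPM in wild-type control and 138 and 133 in prp43a control, was called lower in prp43a control only when wild-type control replicate 2 was left out.

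**Figure D5:**
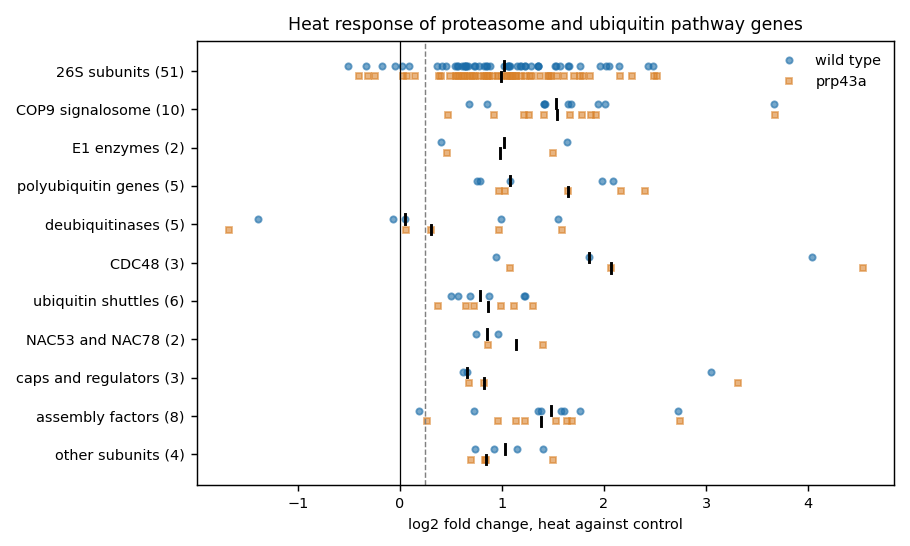
Log2 fold change with heat of the 51 subunit genes (top) and of 48 pathway genes by set, in wild type (circles) and prp43a (squares); black ticks are medians and the dashed line is the median of all genes tested in wild type (0.25). The signalosome median (1.53) and the assembly median (1.48) stand right of the subunit median (1.02), and UBP7 stands alone at the left.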

How the data were processed

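The authors deposited 1 table with TPM for 27655 genes in 8 libraries, per the file headers. Columns sum to 1000000, so values are shares. TAIR10 was the build, as the submitters' processing notes list it, and the stranded mRNA libraries were read as 75 bp pairs, per the labels' protocols. No aligner, counter, annotation version or strand setting is given in the sources used here. With TAIR10.1 exon lengths, 99.2% of 126947 values above 0 and up to 200 reads were whole within 0.05, which gave the recovered reads. Whether a unit is a read or a pair is unknown.

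Genes with at least 1 TPM in at least 2 libraries were analysed as log2(TPM + 1) by limma 3.58.1 (R 4.3.3, mean-variance trend, all 8 libraries, 4 residual degrees of freedom) and called at a Benjamini-Hochberg adjusted p below 0.05 over the 19697 genes tested. Fold changes are on that scale and understate the change of low genes. P-values measure the spread between the libraries of a group. Alternatives changed the pseudocount, the filter, the scaling, the trend, the libraries fitted and a replicate block, and voom was run on recovered reads. The fit was tested on simulated data.

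Members and lists were chosen with earlier results of these data known. Named members were the 2 highest and 2 lowest heat responses per class, pairs whose responses differ by at least 1, the catalytic, deubiquitinating and ubiquitin-binding subunits, members not called with heat, and the smallest p per genotype comparison. In the lists, NAC53, NAC78, PA200, PTRE1 and the extremes of each set were named, save some that are not reported here. The other members, AT3G62310 and genes in the counts of lost calls were named beside them, after their values had been seen. For 13 of the 51 genes the name is the one in common use, since neither the table nor the RefSeq gene list gives it.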

Additional observations from a re-analysis of the deposited data

How the results depend on the processing

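The median log2 fold change of all genes with heat in wild type was 0.25 on the TPM scale, -0.01 with median-of-ratios scaling, 0.06 with quantile normalization and 0.01 with voom. Calls over all genes were then 49.5% to 52.5% higher, against 60.5%, and calls among the subunit genes 88.4% to 91.1% higher, against 95.7%. In that order of settings, the subunit median was 0.74, 0.76 and 0.77 in wild type and 0.68, 0.74 and 0.72 in prp43a, and 5, 5 and 4 genes were called lower in wild type. In wild type PBE1, RPT6a and RPN8a were no longer called with median-of-ratios scaling, PAC1 and RPT4a were called lower under all 3 scalings, and RPN11 under all but voom. In prp43a PAB2, RPT6a and RPN1a lost their calls under all 3, RPN5a and RPN8a with median-of-ratios scaling. RPN11 turned to -0.26, -0.26 and -0.24 in wild type and -0.17, -0.12 and -0.13 in prp43a. PAB1 turned to -0.20, -0.15 and -0.17, and to -0.25, -0.18 and -0.21. PAC1 turned to -0.29, -0.21 and -0.25 in prp43a. AT1G48170 turned in wild type to -0.084, -0.067 and -0.066.

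Leaving out 1 library gave subunit medians of 0.95 to 1.07 in wild type and 0.98 to 1.05 in prp43a, 44 to 45 genes higher in each genotype, 1 to 2 lower in wild type and 0 to 3 lower in prp43a, and 12 to 15 pairs whose ratio passed. The fits so made put RPN11 at -0.066 to 0.11 in wild type, negative without wild-type control replicate 2 or wild-type heat replicate 1, and PAB1 at -0.042 to 0.18 and PAC1 at -0.022 to 0.083 in prp43a, negative in 2 fits each. PAB2 was not called in wild type without wild-type control replicate 1 or wild-type heat replicate 1. Without the trend 1 gene was lower in prp43a. Permuted within genotype 0 pairs passed, since none can. The cause of these changes was not tested.

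Replicate numbers did not pair the libraries: deviations of same-numbered libraries correlated at -0.03 to 0.03. With a replicate block 45 genes rose and 2 fell in each genotype, the call on PAE2 in prp43a being lost. No call between genotypes was gained among the 51 genes under the settings run. The fewest recovered reads behind a value of the 51 genes were 47, and how depth bears on the intervals was not tested.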
